A study of Mus musculus with 40 samples.

Results

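Liver and kidney were compared in the untreated animals of a mouse phenobarbital study: 10 livers and 10 kidneys of the same 10 control mice, which are 20 of the 40 arrays of the series. Arrays were taken by their titles, the livers and kidneys of control animals 1 to 10, and paired by the animal's number. The animals were male B6C3F1/Crl mice, the cross of a C57BL/6 father and a C3H/He mother, 29 to 32 days old on arrival, and they spent 5 days settling in before the 28 days of the study. Control mice drank water without phenobarbital. The other 10 mice of the same strain, sex and age received phenobarbital (PB), a sedative that activates drug metabolism in the liver, at 0.05% in their drinking water for the same 28 days, and are used here only where stated. Both groups share 1 strain, 1 sex and 1 young adult age, so that the values describe the organs of these mice alone. One piece of each organ was measured on 1 GeneChip Mouse430_2 array, which reads transcripts near their 3′ ends. Values are MAS5 signals on a linear scale, scaled so that each array has the same trimmed mean.

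The adult liver is made mostly of hepatocytes, which secrete the proteins of blood plasma, make bile acids and urea, store and release glucose and inactivate drugs. The kidney filters plasma in its glomeruli and recovers most of the filtrate along the nephron: the proximal tubule takes back sugars, amino acids, phosphate and proteins, the thick ascending limb and distal tubule take back salt, calcium and magnesium, and the collecting duct sets water and acid. Some tasks, among them the making of glucose, belong to both organs.

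Of 45037 probe sets, 21188 had a mean signal of at least 50 in either organ, and these stood for 10935 genes, each read by its brightest probe set. Differences are means of log2 signal, liver minus kidney within an animal, with the standard error (SE) from limma after the ± sign. A gene was called where the adjusted p of limma was under 0.05. A fold is the ratio of the mean signals, and where the lower mean was under 50 it was set to 50 and the fold is given as "at least". Levels are means ± SD over 10 animals. Brightness differs between probe sets for reasons other than RNA amount, so levels are compared between organs for 1 gene, not between genes. In pieces of whole organs, fewer cells of a type and less RNA per cell cannot be told apart.

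Several arrays stood apart. The kidney of animal 1 carried transcripts of the exocrine pancreas: the elastase gene Cela3b read 1735 there, against 4.6 to 29.3 in the 9 other kidneys, and Ctrb1, Cela2a, Cpb1, Cpa1, Prss2, Clps and Pnliprp1 were also highest there. These genes are named after their values were seen. The 9 measured pancreas markers summed to 8896 on that array, against a median of 1702 over the kidneys. Most of that median was Cela1, which had a median of 1607 in kidney and 1978 in liver. The liver of animal 5 read more kidney transcripts than the other livers: the 12 genes with the largest kidney excess summed there to 1.26% of their mean sum in kidney, against 0.170% to 0.449% in the other livers. The kidneys of animals 1, 3, 9 and 10 read more liver transcripts, with 0.268% to 0.396% of the liver sum of the 12 largest liver genes, against 0.0701% to 0.167% in the other kidneys. The liver of animal 2 was the array far from the other 9 in 448 of 5186 genes with a liver mean of at least 200, while each other liver was so in 10 to 28 genes. By the same measure in kidney, the array of animal 4 stood apart in 85 of 5524 genes and each other kidney in 9 to 44. Without animals 1, 2 and 5, genes called went from 4000 to 3895 higher in liver and from 4842 to 4630 higher in kidney, and without animals 1, 3, 5, 9 and 10 to 3498 and 4227. Fewer animals give fewer calls by themselves, and leaving out any 1 animal took 8842 genes called to 8671 to 8804. Genes at least 2-fold apart went from 1519 and 2204 to 1561 and 2178 without animals 1, 2 and 5. Without animals 1, 3, 5, 9 and 10 they were 1559 and 2207. The part these arrays' differences played in single results was not tested. Low means of the other organ's genes can rest on them.

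The 4 marker genes separated the organs on every array. Alb encodes albumin, the main plasma protein. Its signal ran from 16685 to 25226 with a median of 18998 in liver, and from 61.2 to 923 with a median of 169.8 in kidney. Apoa1, the core protein of high-density lipoprotein, ran from 24162 to 31553 with a median of 25573 in liver and from 1.00 to 124 with a median of 22.8 in kidney. The highest kidney values of both genes were those of animals 1, 3, 9 and 10. Umod encodes uromodulin, which the thick ascending limb releases into urine. It ran from 9637 to 13146 with a median of 11691 in kidney and from 5.30 to 123 with a median of 21.5 in liver. Slc34a1, the sodium-phosphate cotransporter of the proximal tubule, ran from 7077 to 10754 with a median of 8959.5 in kidney and from 22.5 to 164 with a median of 38.9 in liver. The highest liver value of both kidney genes was that of animal 5. The 10 livers and 10 kidneys did not overlap in any of the 4 genes. Mean signals differed at least 537-fold for Apoa1, 59.8-fold for Alb, at least 232-fold for Umod and 174-fold for Slc34a1, with adjusted p (limma) from 8.8e-13 to 2.8e-09.

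**Figure D1:**
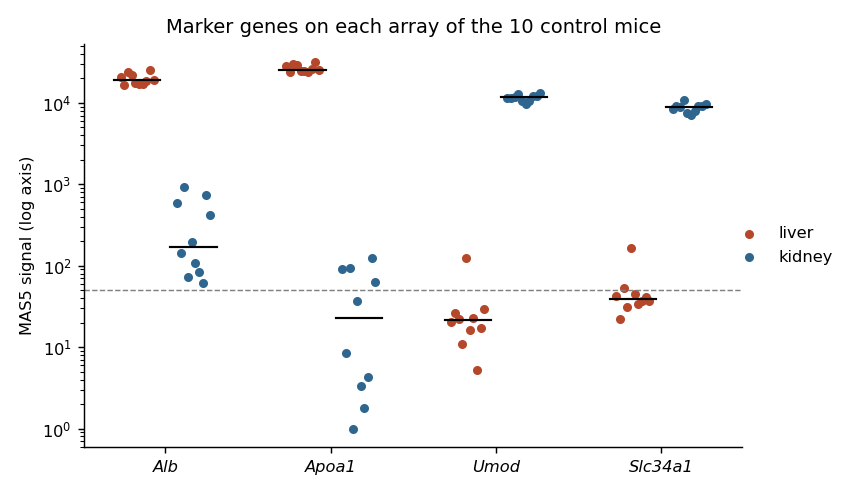
MAS5 signal (log axis, values under 1 drawn at 1) of the 4 marker genes on each array of the 10 control mice, with livers in red, kidneys in blue, medians as black bars and the level of 50 dashed. Alb and Apoa1 were at least 16685 in every liver and Umod and Slc34a1 at least 7077 in every kidney, and the 4 kidneys with the most Alb are those of animals 1, 3, 9 and 10.

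The promoter windows of these 4 genes are shown because they are the markers of the comparison, although other genes differed by larger folds. RefSeq (GRCm38.p6) gives a window from 250 bases before to 50 bases after the start of transcription, and all 4 genes matched. Capitals mark TTGCNNAA, a core of sites of the C/EBP family of regulators, which is abundant in hepatocytes. Both strands were searched, and the motif was in 10.8% of all 32851 windows in the table. The Alb window (chr5:90460620-90460919, plus strand) held 1 match. The Apoa1 window (chr9:46228380-46228679, plus strand), the Umod window (chr7:119479213-119479512, minus strand) and the Slc34a1 window (chr13:55399398-55399697, plus strand) held none. A match describes letters, not binding.
Alb: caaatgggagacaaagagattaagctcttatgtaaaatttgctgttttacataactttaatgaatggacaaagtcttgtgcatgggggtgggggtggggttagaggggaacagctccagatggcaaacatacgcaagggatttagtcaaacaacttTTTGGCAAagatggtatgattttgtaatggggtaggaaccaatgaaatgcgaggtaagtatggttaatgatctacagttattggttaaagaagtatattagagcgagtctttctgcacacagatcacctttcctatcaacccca
Apoa1: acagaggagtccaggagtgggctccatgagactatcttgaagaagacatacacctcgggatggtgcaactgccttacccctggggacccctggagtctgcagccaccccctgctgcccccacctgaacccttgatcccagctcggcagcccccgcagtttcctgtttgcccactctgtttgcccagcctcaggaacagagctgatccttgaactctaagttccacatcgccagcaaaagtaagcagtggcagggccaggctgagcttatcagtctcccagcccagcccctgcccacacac
Umod: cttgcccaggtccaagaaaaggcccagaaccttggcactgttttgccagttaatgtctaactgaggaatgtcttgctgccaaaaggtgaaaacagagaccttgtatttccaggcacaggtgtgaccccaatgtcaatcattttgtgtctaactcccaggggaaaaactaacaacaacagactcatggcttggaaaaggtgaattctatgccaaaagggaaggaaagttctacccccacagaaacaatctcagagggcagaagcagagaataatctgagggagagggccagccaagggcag
Slc34a1: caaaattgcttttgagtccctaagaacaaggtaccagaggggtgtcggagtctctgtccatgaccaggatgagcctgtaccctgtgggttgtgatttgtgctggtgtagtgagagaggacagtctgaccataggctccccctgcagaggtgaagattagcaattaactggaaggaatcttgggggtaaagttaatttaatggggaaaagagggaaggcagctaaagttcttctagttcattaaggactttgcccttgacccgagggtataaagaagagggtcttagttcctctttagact

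Most genes differed between the organs. Of the 21188 probe sets 16611 (78.4%) were called. Of 10935 genes, 4000 (36.6%) were called higher in liver and 4842 (44.3%) higher in kidney, and 2093 were not called. A difference of at least 2-fold on the log2 scale was found in 1519 genes (13.9%) in favour of liver and 2204 (20.2%) in favour of kidney. The 10 livers and 10 kidneys did not overlap in 2211 genes (20.2%) higher in liver and 3047 (27.9%) higher in kidney, 48.1% of genes in all. In contrast, the largest differences were on the side of liver: 83 genes were at least 100-fold higher in liver and 19 in kidney, and 327 and 285 were at least 10-fold apart. These fold counts were taken on the deposited scaling alone. With means under 50 set to 50, they depend on how high an organ's signals reach. The highest signal of an array averaged 28431.5 in liver and 17570.6 in kidney. Means reached 50 in both organs for 8593 genes, in liver alone for 1047 and in kidney alone for 1295. Where 1 organ is under 50, a log2 difference depends on the floor, and so do the list medians given with such genes. Over all genes the median difference was -0.08 (log2), and it was 0.00 after quantile normalization and -0.16 after centring arrays on the median. Quantile normalization gave 4428 genes higher in liver and 4480 higher in kidney, and with no filter on signal the order turned to 6365 and 5452, so that which organ had more called genes depended on these choices.

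**Figure D2:**
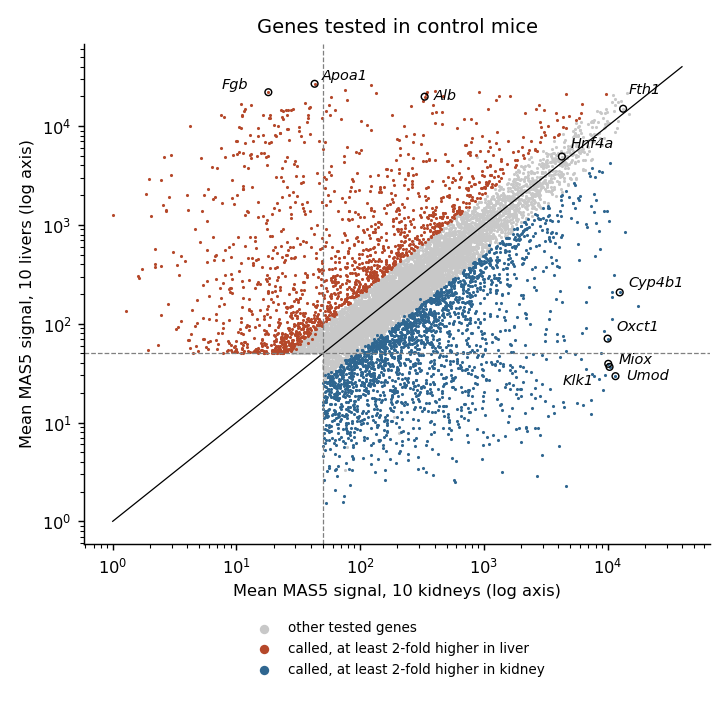
Mean MAS5 signal of each of the 10935 genes in the 10 livers against the 10 kidneys (both log axes), with called genes at least 2-fold apart in colour, the line of equal signal in black and the level of 50 dashed. The 1519 liver genes in red include Apoa1 and Fgb, bright in liver and under 50 in kidney, while Fth1 and Hnf4a lie near the line.

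The 12 genes with the largest fold in favour of liver were products of hepatocytes. They were Apoa1, Fgb, Hpx, Cyp3a11, Ces1c, Ahsg, Cyp2c70, Bhmt, Apoc1, Mug1, C9 and Serpinc1, and their folds lay between 295 and 537, mostly as lower bounds. Fgb, the beta chain of fibrinogen, read 22083 ± 2087 in liver with a kidney mean of 18.1 (at least 442-fold). The kidneys of animals 1, 3, 9 and 10 read 34.4 to 48.6 for Fgb and the others at most 2.4. Hpx encodes hemopexin, which binds free heme in plasma, and read 17322 ± 1841 in liver and 36.1 ± 25.3 in kidney. Bhmt, which remethylates homocysteine with betaine, read 22990 ± 2603 in liver and 75.5 ± 42.2 in kidney, and its 4 highest kidneys were again those of animals 1, 3, 9 and 10. Cyp2c70, a cytochrome P450 that hydroxylates bile acids in mice, read 15491 ± 1338 in liver and 39.3 ± 13.8 in kidney. Of the 12, 9 had a kidney mean under 50.

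The 12 genes with the largest fold in favour of kidney were Umod, Klk1, Miox, Cltrn, Dnase1, Slc34a1, Fxyd2, Napsa, Slc7a13, Spink1, Tmigd1 and Oxct1, with folds from 142 to 232, several of them lower bounds. Klk1 encodes tissue kallikrein of the connecting tubule and read 36.6 ± 64.8 in liver and 10386 ± 1473 in kidney. Miox, which opens the ring of myo-inositol in the proximal tubule, read 39.3 ± 40.2 in liver and 10140.3 ± 1202 in kidney. Fxyd2, the gamma subunit that modulates the sodium-potassium pump, read 27.8 ± 28.1 in liver and 8518 ± 857 in kidney. Cltrn encodes collectrin, which carries amino acid transporters to the brush border, and read 30.4 ± 48.3 in liver and 9530.3 ± 787 in kidney. The liver of animal 5 read 218, 147 and 165 for Klk1, Miox and Cltrn, against at most 46.8 in any other liver.

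Proteins of blood plasma formed a one-sided liver group. All 30 tested plasma transport proteins and protease inhibitors were called higher in liver and at least 2-fold apart, with a median log2 difference of 7.23 against -0.08 over all genes. Ambp, the precursor of alpha-1-microglobulin, read 14471 ± 1289 in liver and 26.3 ± 16.2 in kidney. The retinol carrier Rbp4 read 14679 ± 1577 in liver and 63.1 ± 20.3 in kidney, and Igf1, the growth factor that liver releases under growth hormone, 7117 ± 333 in liver and 46.8 ± 7.20 in kidney. The smallest difference was that of Ttr, the carrier of thyroxine and retinol-binding protein, with 21343 ± 3151 in liver and 9704 ± 1921 in kidney (log2 difference 1.15 ± 0.07). Its 4 probe sets gave log2 differences from 1.15 to 2.89, all in favour of liver, but after quantile normalization the difference named here fell to 0.31, under 2-fold. Kng1, the kininogen precursor from which kallikrein cuts kinins, also kept a sizeable kidney signal at 2149 ± 186 against 13477 ± 918 in liver. Igf1, Rbp4, Ttr and Kng1 were chosen after their values were seen.

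Lipoprotein and clotting genes followed the same direction. Of 19 apolipoproteins and lipoprotein enzymes, 18 were higher in liver and 1 in kidney (median 5.42). Apof read 10061 ± 732 in liver and 4.18 ± 6.31 in kidney and Apoc4 9887 ± 722 in liver and 10.6 ± 7.44 in kidney. The exception was Lpl, the lipase that frees fatty acids from lipoproteins at the vessel wall, with 1396 ± 284 in liver and 9842 ± 1589.6 in kidney and a log2 difference of -2.83 ± 0.12. Among 39 genes of coagulation and complement, 38 were higher in liver, 37 of them at least 2-fold (median 6.05), and 1 was higher in kidney. The fibrinolytic zymogen Plg read 14696 ± 1416 in liver and 22.9 ± 10.2 in kidney, prothrombin (F2) 12454 ± 932 in liver and 23.5 ± 12.9 in kidney and heparin cofactor II (Serpind1) 5016 ± 209 in liver and 18.0 ± 10.6 in kidney. F3, tissue factor, the cellular trigger of clotting, was the member higher in kidney, at 65.3 ± 13.0 in liver and 149.7 ± 28.1 in kidney. All 3 tested major urinary protein genes were higher in liver, Mup10 at 5104 ± 1623 in liver and 2.96 ± 2.67 in kidney (at least 102-fold), although members of this family share sequence and cannot be told apart with certainty. Of 22 serpins 14 were higher in liver and 7 in kidney, beside 36.6% and 44.3% over all genes. Serpina1f differed most in favour of kidney, with 19.3 ± 9.11 in liver and 1819 ± 152 in kidney.

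Nitrogen handling was divided within pathways. Of 9 urea cycle genes, 7 were higher in liver and 1 in kidney, beside 36.6% and 44.3% over all genes, and 1 was not called. Arg1, the liver arginase that releases urea, read 12978 ± 1924 in liver and 7.51 ± 9.23 in kidney, Cps1, which makes carbamoyl phosphate, 14679 ± 1021 in liver and 27.6 ± 17.9 in kidney, and Otc, which makes citrulline, 8191 ± 702 in liver and 12.9 ± 7.04 in kidney. Nags, which makes the activator of Cps1, read 601 ± 112 in liver and 20.6 ± 7.30 in kidney. The difference was smaller than in those for Asl and Ass1, steps that the kidney also uses to make arginine. Asl read 3047 ± 380.5 in liver and 1215 ± 112 in kidney and Ass1 257 ± 112 in liver and 313 ± 82.5 in kidney (log2 difference -0.38 ± 0.18, adjusted p (limma) = 0.0705). Small differences were not particular to these steps, as the median log2 difference over the 9 genes was 1.32. Ass1 was read by 1 probe set, and Asl and Ass1 were chosen after their values were seen. Arg2, the mitochondrial arginase, was higher in kidney, at 21.4 ± 10.1 in liver and 98.7 ± 29.2 in kidney.

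Of 44 genes of amino acid breakdown, 34 were higher in liver and 9 in kidney, with 27 and 4 at least 2-fold apart (median 1.40). Over all genes the shares called were 36.6% and 44.3%, with 13.9% and 20.2% at least 2-fold apart. Tdo2, which opens the ring of tryptophan, ran from 7403 to 15750.3 with a median of 13165 in liver, where the lowest value was that of animal 2, and from 0.300 to 29.4 with a median of 8.80 in kidney. Tat, tyrosine aminotransferase, read 5396 ± 2379 in liver and 16.7 ± 12.3 in kidney. In the other direction, Gatm, which makes the precursor of creatine, read 88.9 ± 25.7 in liver and 3178 ± 363 in kidney and Dao, which oxidises D-amino acids, 37.2 ± 8.31 in liver and 1442 ± 93.7 in kidney. Gamt, which completes creatine from that precursor, read 1387 ± 123 in liver and 129 ± 17.1 in kidney and is named beside Gatm after its value was seen. The 2 steps of creatine synthesis were thus opposite in direction, with log2 differences of -5.20 ± 0.10 for Gatm and 3.43 ± 0.08 for Gamt. Bcat2, the branched-chain aminotransferase of mitochondria, was also higher in kidney, at 64.1 ± 15.6 in liver and 204 ± 14.3 in kidney.

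Bile acid genes were mostly higher in liver: 21 of 28, against 5 higher in kidney (median 3.35). Slc10a1, which takes bile acids up from blood, read 8121 ± 1022 in liver and 20.7 ± 9.18 in kidney, and Slc27a5, which activates them with coenzyme A, 8216 ± 825 in liver and 16.4 ± 8.42 in kidney. Cyp7a1, the rate-limiting enzyme of their synthesis, read 1241 ± 1012 in liver and 16.5 ± 8.06 in kidney. The exceptions with a difference of at least 2-fold were both subunits of the basolateral exporter: Slc51a read 46.0 ± 16.7 in liver and 734 ± 97.7 in kidney and Slc51b 19.7 ± 6.35 in liver and 279.6 ± 36.4 in kidney. Of 4 tested ketone body genes 1 was higher in liver and 3 in kidney, beside 36.6% and 44.3% over all genes. Oxct1, which is needed to burn ketone bodies, ran from 8728 to 11469 with a median of 9943 in kidney and from 41.9 to 142 with a median of 60.8 in liver, with no overlap. Bdh1, which interconverts them, read 2223 in liver and 1910.2 in kidney (log2 difference 0.21 ± 0.08), a call lost after quantile normalization (0.04), and Acat1 5210.3 in liver and 6834 in kidney (log2 difference -0.40 ± 0.07). Cyp7a1, Bdh1 and Acat1 were chosen after their values were seen.

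Families of drug metabolism leaned to liver, but each had members higher in kidney. Of 40 cytochromes P450 of families 1 to 4, 31 were higher in liver and 9 in kidney, 30 and 7 of them at least 2-fold (median 4.01). Cyp3a25 read 12332 ± 1674 in liver and 7.95 ± 8.37 in kidney and Cyp2f2 14151 ± 1395 in liver and 53.3 ± 11.7 in kidney. The members higher in kidney included Cyp4b1, which hydroxylates fatty acids and foreign compounds, at 208 ± 90.8 in liver and 12555 ± 2292 in kidney, and Cyp2j11 and Cyp2j13 of the arachidonate-oxidising 2J subfamily, at 8.97 ± 10.3 in liver and 2175 ± 266 in kidney and 17.7 ± 12.1 in liver and 2605 ± 383 in kidney. The liver of animal 5 read 420 for Cyp4b1, the highest of the 10 livers. Cyp2e1, which oxidises ethanol and acetone, read 20455 ± 2515 in liver and 11003 ± 1674 in kidney, a log2 difference of 0.90 ± 0.07, and is named after its value was seen. After quantile normalization its difference was 0.02 and no longer called.

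Conjugating enzymes also had members on both sides. Of 19 glutathione S-transferases, 14 were higher in liver and 5 in kidney (median 1.86). Gstm6 read 752 ± 151 in liver and 6.47 ± 4.73 in kidney and Gsta3 6908 ± 799 in liver and 267 ± 19.4 in kidney, while Mgst3 read 200.5 ± 27.9 in liver and 1059 ± 62.0 in kidney and Gstm5 399 ± 41.8 in liver and 1732 ± 139 in kidney. Among 10 UDP-glucuronosyltransferases, 6 were higher in liver and 4 in kidney, with all 10 at least 2-fold apart and not overlapping, against 34.0% and 48.1% of all genes. Ugt2b1 read 12156 ± 911 in liver and 18.2 ± 11.5 in kidney, and its relative Ugt2b38 1088 ± 232 in liver and 10190 ± 1391 in kidney. Of 6 sulfotransferases, 4 were higher in liver, Sult2a8 with 9694 ± 876 in liver and 10.9 ± 7.84 in kidney, and 2 in kidney, Sult1c2 with 69.4 ± 19.5 in liver and 1297 ± 109 in kidney. Beside these counts, 36.6% of all genes were called higher in liver and 44.3% in kidney. Members of these families share sequence, and probe sets of several of them carry the suffixes of shared probes.

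Of 23 genes of glucose production and sugar uptake, 9 were higher in liver and 12 in kidney (median -0.34), shares near the 36.6% and 44.3% over all genes. Gckr was higher in liver, at 1376 ± 188 in liver and 12.2 ± 7.16 in kidney. Apical sugar cotransporters were higher in kidney, with Slc5a2, which recovers most filtered glucose, at 43.7 ± 10.0 in liver and 3186 ± 151 in kidney, Slc5a1 at 19.8 ± 8.83 in liver and 455 ± 51.0 in kidney and Slc5a10, a carrier of mannose and fructose, at 21.8 ± 9.45 in liver and 1859.5 ± 140.2 in kidney. Slc2a2, through which glucose leaves both cell types, read 3908 ± 453 in liver and 2003 ± 228 in kidney. For enzymes of glucose production the result depended on the scaling and the probe set. Pck1, the gate to gluconeogenesis, ran from 2783 to 8509 with a median of 5590.4 in liver and from 3958 to 5436 with a median of 4677 in kidney, and its 95% interval of the log2 difference was -0.09 to 0.40, while its other probe set was called higher in kidney, at -0.45. G6pc, which frees glucose, read 2594 ± 1044 in liver and 3236 ± 1006 in kidney (95% interval -0.82 to 0.06). Fbp1 read 14268 ± 1777 in liver and 11376 ± 1647 in kidney and was called, with a log2 difference of 0.33 ± 0.08. After quantile normalization Pck1 and Fbp1 turned to -0.25 and -0.48, and G6pc was called higher in kidney at -0.61. G6pc was chosen after its values were seen.

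Isozymes of 1 reaction were often opposite between the organs. Pyruvate kinase, the last step of glycolysis, was read as Pklr in liver (669.7 ± 106 in liver and 72.0 ± 8.69 in kidney) and as Pkm in kidney, with 49.2 ± 16.5 in liver and 593 ± 38.9 in kidney. Glycogen synthase was read as Gys2 at 842 ± 107 in liver and 133 ± 19.1 in kidney and as Gys1 at 27.4 ± 17.8 in liver and 112 ± 23.9 in kidney. Glycogen phosphorylase was read as Pygl at 6007 ± 553 in liver and 209 ± 34.1 in kidney and as Pygb at 57.6 ± 12.9 in liver and 144 ± 35.4 in kidney. These 3 pairs were each opposite, with all 10 livers apart from all 10 kidneys in every member. Of the lactate dehydrogenase genes, Ldhb, whose product favours lactate use, read 80.9 ± 22.9 in liver and 6261 ± 590.3 in kidney, while Ldha read 7205 ± 843 in liver and 4544 ± 421 in kidney. Ldhd, which oxidises D-lactate, was higher in kidney at 1355 ± 128 in liver and 7796 ± 998 in kidney. The hexokinase Hk1 was higher in kidney at 66.1 ± 15.4 in liver and 514 ± 60.4 in kidney, and the aldolase Aldoa at 752 ± 146 in liver and 4185 ± 464 in kidney. The other 2 tested hexokinases (log2 differences 1.41 and 1.45) and the aldolase Aldoc (1.11) were higher in liver. Both alanine aminotransferases and both acetyl-CoA carboxylases were higher in liver: Gpt2 read 2769.6 in liver and 261 in kidney, Gpt 1624 in liver and 218 in kidney, Acacb 300.4 in liver and 60.4 in kidney and Acaca 436 in liver and 132 in kidney. The carnitine palmitoyltransferases Cpt1a and Cpt2, which bring fatty acids into mitochondria, were not called, with 95% intervals of the log2 difference of -0.11 to 0.10 and -0.18 to 0.14. Their probe sets disagreed: another of Cpt1a was called higher in kidney, at -1.04, and another of Cpt2 higher in liver, at 0.64. Creatine kinase was a kidney family here, with Ckb at 60.1 ± 10.7 in liver and 753 ± 113 in kidney and Ckmt1 at 16.7 ± 13.0 in liver and 302 ± 21.6 in kidney.

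**Figure D3:**
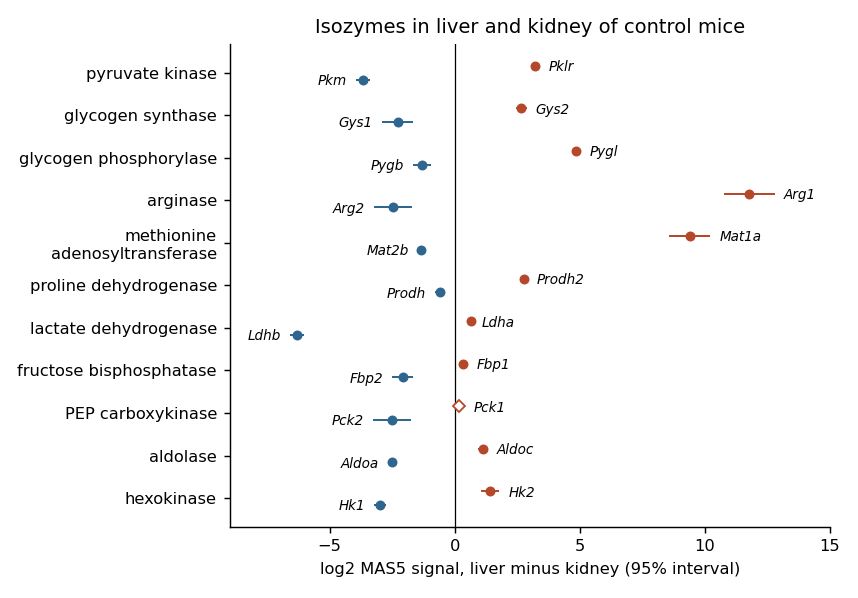
Log2 difference of MAS5 signal, liver minus kidney, with its 95% interval from limma, for pairs of genes whose products carry out 1 reaction or, for Mat2b, regulate it, over 10 control mice. Red lies on the side of liver and blue on that of kidney, and the open diamond marks Pck1, which was not called. In 9 of the 11 pairs shown both members were called in opposite directions with differences of at least 0.5, and Fbp1 turned to the kidney side after quantile normalization. The pairs are a choice from the isozyme sets, so 9 of 11 is not a share of all sets. Alanine aminotransferase, acetyl-CoA carboxylase, acyl-CoA synthetase, creatine kinase, phosphofructokinase and carnitine palmitoyltransferase, none with members called in opposite directions, are not drawn. Glucose transporters, with 2 called higher in liver and 3 in kidney, are not drawn either, and glutaminase had no tested member.

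The segments of the nephron were read from genes of the proximal tubule to those of the collecting duct. All 37 tested proximal tubule genes were higher in kidney, 35 of them at least 2-fold (median -5.82). Slc22a12, the urate exchanger, read 49.9 ± 25.7 in liver and 5431 ± 689 in kidney, and Slc7a13, an anionic amino acid transporter, 31.0 ± 14.1 in liver and 7520.2 ± 967 in kidney. Lrp2, megalin, the receptor by which filtered proteins are recovered, read 15.8 ± 12.8 in liver and 5671 ± 289 in kidney, and Kap, an androgen-regulated product of mouse kidney, 153 ± 384 in liver and 17571 ± 2404 in kidney. The liver mean of Kap rested on 1230 in animal 5 and 222 in animal 3, with the other livers at 1.5 to 24.3. The smallest differences were those of Slc22a7 (2257 in liver and 3564 in kidney), an organic anion carrier, and Enpep (1428 in liver and 1843 in kidney), which trims angiotensin II. Lrp2, Kap, Slc22a7 and Enpep were chosen after their values were seen.

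Of 14 genes of the thick ascending limb, 13 were higher in kidney (median -5.83). Slc12a1, the sodium-potassium-chloride cotransporter blocked by loop diuretics, read 14.5 ± 6.91 in liver and 4452 ± 540.0 in kidney, its partner channel Kcnj1 6.62 ± 5.48 in liver and 1309.8 ± 219 in kidney and the growth factor Egf 34.5 ± 17.1 in liver and 6695 ± 718 in kidney. Cldn10 and Cldn16, which form the paracellular routes for sodium and for magnesium, read 14.1 in liver and 2438 in kidney and 10.3 in liver and 182 in kidney. Cldn14, which closes the magnesium route, was higher in liver, at 209 ± 44.7 in liver and 19.3 ± 6.12 in kidney. All 14 genes of the distal convoluted and connecting tubule were higher in kidney and at least 2-fold apart (median -5.31). The calcium-binding proteins Calb1 and S100g read 16.2 ± 22.3 in liver and 4367 ± 381 in kidney and 2.27 ± 1.38 in liver and 4618 ± 448 in kidney. The highest liver value of Calb1, 76.6, was that of animal 5.

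In the collecting duct, 12 of 14 genes of principal cells were higher in kidney and 1 in liver (median -3.35), and all 13 genes of intercalated cells were higher in kidney (median -4.56). Aqp2, the water channel set by vasopressin, read 34.5 ± 20.1 in liver and 712 ± 266 in kidney. Hsd11b2, which shields the mineralocorticoid receptor from cortisol and corticosterone, read 26.7 ± 15.3 in liver and 1093 ± 68.6 in kidney. The bicarbonate exchangers Slc26a4 and Slc4a1 read 23.0 in liver and 554 in kidney and 9.82 in liver and 195 in kidney, and the ammonia channel Rhcg 6.56 in liver and 349 in kidney. Slc4a1 is also a marker of red blood cells, whose other tested marker Alas2 was higher in liver. The exception among the principal cell genes was St6gal1, a sialyltransferase also made by hepatocytes, at 1497 ± 417 in liver and 124 ± 22.2 in kidney. Of 9 tested podocyte genes 8 were higher in kidney (median -1.61). Clic5 read 44.3 ± 7.01 in liver and 612 ± 109.6 in kidney and Podxl 41.9 ± 17.5 in liver and 371 ± 32.6 in kidney, while Plce1 was higher in liver at 136 ± 21.9 in liver and 70.5 ± 10.9 in kidney and is named after its value was seen.

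Transport proteins divided along the same line. Of 250 tested solute carriers, 74 were higher in liver and 151 in kidney, 43 and 111 of them at least 2-fold (median -0.67). The leading liver carriers, Slc27a5, Slc10a1, Slco1b2 and Slc38a4, serve bile acids, organic anions and amino acids, and Slco1b2 read 5386 ± 764 in liver and 15.7 ± 5.63 in kidney. Of 9 aquaporins, 7 were higher in kidney and 2 in liver, beside 44.3% and 36.6% over all genes. Aqp9, which lets glycerol into hepatocytes, and Aqp8 were the liver members, at 2882 ± 438 in liver and 9.17 ± 5.48 in kidney and 1306 ± 459 in liver and 35.7 ± 9.52 in kidney. Aqp1, the water channel of the proximal tubule, read 472 ± 61.5 in liver and 3472 ± 203 in kidney and Aqp6, of intercalated cells, 4.52 ± 4.94 in liver and 295 ± 57.8 in kidney. Of 12 claudins, 7 were higher in kidney and 5 in liver, beside 44.3% and 36.6% over all genes. Cldn8 read 16.6 ± 6.37 in liver and 984 ± 121 in kidney and Cldn1 832 ± 154 in liver and 74.7 ± 15.2 in kidney. The kidney cadherin Cdh16 read 15.2 ± 21.5 in liver and 6314 ± 656 in kidney, with its highest liver value, 73.6, in animal 5, and the cadherin Cdh2 was higher in liver at 785 ± 108 in liver and 74.9 ± 12.5 in kidney.

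Most pump subunits were higher in kidney. Over all genes 44.3% were called higher in kidney and 36.6% in liver. Of 21 subunits of the vacuolar proton pump, 19 were higher in kidney and 2 in liver (median -1.27). In 19 the kidneys lay above the livers without overlap, against 27.9% of all genes. This held for subunits of every cell, such as Atp6v1a at 377 ± 29.6 in liver and 3185 ± 331 in kidney and Atp6v1b2 at 279 ± 53.9 in liver and 2243 ± 152 in kidney, and for the intercalated cell form Atp6v0d2 at 61.9 ± 34.1 in liver and 326 ± 29.8 in kidney. Of 7 tested genes of the sodium-potassium pump and its FXYD modulators, 5 were higher in kidney, with the beta subunit Atp1b1 at 313 ± 32.9 in liver and 11380.1 ± 1547 in kidney. Fxyd1, the modulator phospholemman, was higher in liver at 2925 ± 265 in liver and 52.6 ± 18.6 in kidney. Of 16 potassium channel subunits, 12 were higher in kidney, with Kcnj15 at 12.3 ± 9.96 in liver and 3696 ± 278 in kidney and Kcnj16 at 32.2 ± 8.03 in liver and 2416 ± 243 in kidney, and 4 in liver, with Kcnn2 at 177 ± 17.5 in liver and 16.4 ± 8.67 in kidney.

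Among 18 genes of renal hormones and their receptors, 10 were higher in kidney and 7 in liver (median -1.73), shares near the 44.3% and 36.6% over all genes. The 4 members with the largest excess in kidney act in phosphate, calcium and vitamin D control. Kl, the Klotho coreceptor of a phosphate-lowering hormone, read 14.8 ± 7.75 in liver and 3652 ± 167 in kidney, the parathyroid hormone receptor Pth1r 67.6 ± 20.2 in liver and 3153 ± 220.1 in kidney and the vitamin D receptor Vdr 6.41 ± 4.83 in liver and 745 ± 66.3 in kidney. Cyp24a1, which inactivates vitamin D, ran from 126 to 1259 with a median of 389.9 in kidney and from 3.10 to 21.9 with a median of 11.2 in liver, so that the organs did not overlap in spite of the spread between kidneys. The receptors for glucagon (Gcgr), epidermal growth factor (Egfr) and vasopressin (Avpr1a) were liver genes, with Gcgr at 1423 ± 108 in liver and 121 ± 16.4 in kidney, Egfr at 6558 ± 1667 in liver and 308 ± 28.7 in kidney and Avpr1a at 413 ± 79.1 in liver and 78.6 ± 15.3 in kidney. Egf and Egfr were thus highest in different organs.

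Transcription factors were divided between the organs as well. All 18 tested kidney factors were higher in kidney and at least 2-fold apart (median -4.76). Pou3f3, a factor of the nephron, read 12.9 ± 8.63 in liver and 773 ± 69.0 in kidney, Esrrg 12.1 ± 8.06 in liver and 510.3 ± 63.5 in kidney and Irx3 30.7 ± 12.1 in liver and 794 ± 80.0 in kidney. Of 25 liver factors, 23 were higher in liver and 1 in kidney (median 2.85). Creb3l3 read 2652 ± 383 in liver and 46.7 ± 24.7 in kidney, Cebpa 1671 ± 369 in liver and 114 ± 16.4 in kidney and Hhex 1394 ± 864 in liver and 34.9 ± 5.79 in kidney. Hnf4a, a regulator that both hepatocytes and the proximal tubule need, was nearly level at 4928 ± 593 in liver and 4274 ± 439 in kidney (log2 difference 0.20 ± 0.04), and its 4 probe sets disagreed, 2 others being called higher in kidney (log2 differences -0.81 and -0.58) and the last not called. It turned to -0.17 after quantile normalization. Nr1h4, the bile acid receptor, was not called, at 1016 ± 149 in liver and 1245 ± 294 in kidney, but was called higher in kidney after quantile normalization (-0.32). Hnf4a and Nr1h4 were chosen after their values were seen.

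Hox genes, which mark position along the body axis, were kidney genes. Of 33 Hox genes with a probe set, 18 reached a mean of 50, and 17 of these were called higher in kidney, 15 at least 2-fold (median -3.58). Hoxa9 read 15.5 ± 10.0 in liver and 1367 ± 75.4 in kidney and Hoxd8 33.8 ± 5.62 in liver and 699 ± 31.3 in kidney, and the 10 kidneys lay above the 10 livers in both. Hoxa5 was the 1 member higher in liver, by a log2 difference of 0.24 ± 0.09, with 183 ± 30.4 in liver and 154 ± 15.6 in kidney, and was chosen after its values were seen. It turned to -3.36 when probe sets with shared-probe suffixes were left out.

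**Figure D4:**
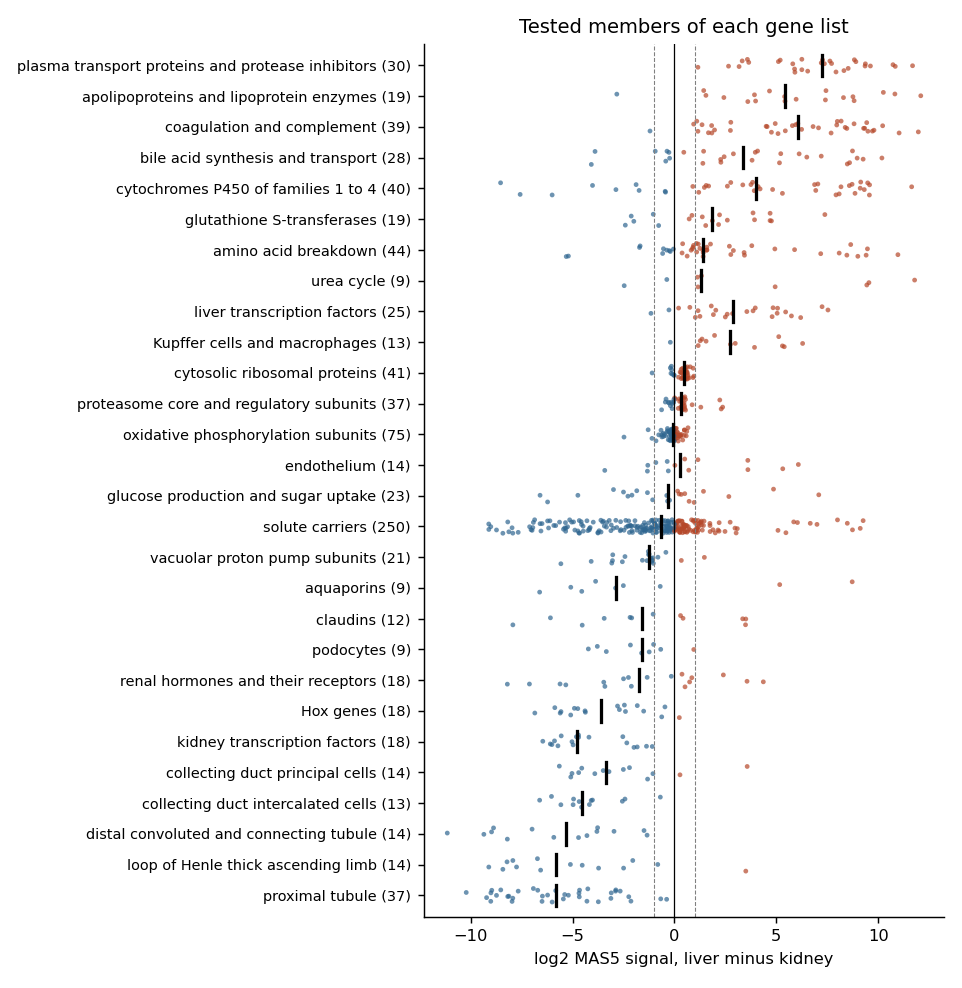
Log2 difference of MAS5 signal, liver minus kidney, of every tested member of 28 gene lists (number of members in brackets), with red on the side of liver, blue on that of kidney, black bars at list medians and dashed lines at a 2-fold difference. List medians run from 7.23 for plasma proteins to -5.83 for the thick ascending limb, and the medians of the ribosomal, proteasome and oxidative phosphorylation lists lie within the dashed lines.

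Cells other than hepatocytes and tubule cells also left their marks. Of 13 tested genes of Kupffer cells and other macrophages, 12 were higher in liver and 1 in kidney (median 2.74). Clec4f, a receptor of Kupffer cells, read 457 ± 90.5 in liver and 14.9 ± 8.15 in kidney, Cd5l 597 ± 149 in liver and 8.79 ± 3.82 in kidney and Vsig4 414 ± 86.9 in liver and 13.6 ± 6.05 in kidney. The summed signal of 14 measured genes ran from 4660 to 7268 in liver and from 1865 to 2130 in kidney. Of 14 endothelial genes 7 were higher in liver and 6 in kidney, near the shares over all genes (36.6% and 44.3%). Clec4g, Oit3, Stab2 and Lyve1 of the liver sinusoid were higher in liver, with Clec4g at 877 ± 117 in liver and 22.8 ± 7.49 in kidney, and Emcn, Tek and Pecam1 were higher in kidney, with Emcn at 47.5 ± 13.9 in liver and 493 ± 66.9 in kidney. Of 12 genes of stellate cells and fibroblasts 5 were higher in liver, 4 in kidney and 3 were not called (median 0.06), also near the shares over all genes. On the liver side Lrat and Reln read 121 ± 38.1 in liver and 16.7 ± 4.61 in kidney and 670.3 ± 89.6 in liver and 104 ± 10.7 in kidney, and on the kidney side the smooth muscle actin Acta2 read 247 ± 68.2 in liver and 853 ± 106 in kidney. Of 5 tested bile duct genes 4 were higher in kidney, Epcam with 28.6 ± 54.0 in liver and 496 ± 85.8 in kidney. The liver mean of Epcam rested on 180.4 in animal 2, with a median of 11.8. These epithelial genes are also those of kidney tubules and collecting ducts. Alas2, which starts heme synthesis in red cell precursors, read 1192 ± 176 in liver and 107 ± 91.7 in kidney. The other measured red cell markers did not follow it. Slc4a1, also a gene of intercalated cells, read 9.82 in liver and 195 in kidney, and Hba-a1 and Epb42 were under 50 in both organs. Fabp4 of fat and vessel cells was higher in kidney at 315 ± 195 in liver and 935 ± 212 in kidney. All 7 skeletal muscle genes were under 50 in both organs, and of 11 adrenal genes 10 were.

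Genes of every cell differed little, but not in the same way. Of 41 cytosolic ribosomal protein genes, 33 were higher in liver and 1 in kidney, with a median log2 difference of 0.49, and none was 2-fold higher in liver. After quantile normalization 14 were higher in liver and 10 in kidney. Rpl41 was the member higher in kidney, but turned to 0.052 when probe sets with shared-probe suffixes were left out. Of 37 proteasome subunits, 23 were higher in liver and 9 in kidney (median 0.34). The 4 that were at least 2-fold apart were Psmb8, Psmb9 and Psmb10, the subunits of the immunoproteasome, and Psmb3. Psmb9 read 247 ± 35.4 in liver and 48.0 ± 6.70 in kidney and Psmb8 314 ± 29.4 in liver and 64.6 ± 9.27 in kidney. Of 75 subunits of oxidative phosphorylation, 18 were higher in liver, 29 in kidney and 28 were not called (median -0.06), beside 36.6% and 44.3% called over all genes. This count rested on the scaling: after quantile normalization 5 were higher in liver and 67 in kidney. Cox7a1, a subunit typical of muscle, was the largest difference, at 36.5 ± 8.20 in liver and 199 ± 18.4 in kidney. The 8 subunits of the cytoplasmic chaperonin split 3 and 3, with 2 not called, near the shares over all genes.

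Some bright genes were nearly level between the organs. Among genes whose 95% interval of the log2 difference lay within 0.5 of 0, those with the highest signal in their dimmer organ were Fth1, Akr1a1, Fbp1, Hspa8, Mdh1, Cox7a2, Slc25a39 and Atp5pb. Fth1, the heavy chain of ferritin, ran from 13845 to 16245 with a median of 14887 in liver and from 10825 to 16328 with a median of 13328 in kidney. Hspa8, a constitutive chaperone, read 11344 ± 2334 in liver and 12094 ± 2178 in kidney, and Mdh1, cytosolic malate dehydrogenase, 10616 ± 1375 in liver and 9902 ± 831 in kidney. This likeness depended on the probe set and the scaling. The 3 other probe sets of Akr1a1 were called higher in kidney, at -0.92 to -1.02, and Atp5pb, Cox7a2, Hspa8, Mdh1 and Slc25a39 each had another probe set called higher in kidney. After quantile normalization, which forces both organs to 1 distribution of signals, all 8 were lower in liver, with log2 differences from -0.48 for Fbp1 to -0.90 for Akr1a1.

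The brightest transcripts took a larger part of the signal in liver. The 50 brightest probe sets held 7.86% ± 0.64 of the summed signal in liver (lowest 7.16, median 7.70, highest 8.80) and 5.15% ± 0.54 in kidney (lowest 4.33, median 5.16, highest 6.06), and the share was higher in the liver of all 10 animals (exact paired permutation test, two-sided, p = 0.00195, the smallest that 10 pairs allow). With the 10 brightest the shares were 1.90% and 1.26%, and with the 200 brightest 22.1% and 15.6%. Livers had fewer probe sets of at least 50, 18493 ± 273 against 18865 ± 284 in kidney (lower in 8 of 10 animals, exact paired permutation test, two-sided, p = 0.00781).

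The spread between animals was larger in liver than in kidney, which was not tested. Over 4203 genes with means of at least 200 in both organs, the median SD of log2 signal between animals was 0.16 in liver and 0.12 in kidney, and an SD over 0.5 was found for 86 genes in liver and 16 in kidney. Among genes whose liver mean reached 200, the largest SDs in liver were those of Mt2, Mt1, Lcn2, Moxd1, Saa2 and Gadd45g. The metallothionein Mt1, which binds zinc, ran from 235 to 16517 with a median of 4142 in liver, where animals 2, 3, 4, 8 and 10 read at least 7210 and the other 5 at most 1075, and from 704 to 1892 with a median of 1204 in kidney. Saa2, an acute-phase protein, ran from 517 to 13234 with a median of 7256 in liver and from 2.10 to 19.0 with a median of 12.5 in kidney. Lcn2, a siderophore-binding protein of the same response, ran from 49.6 to 2137 with a median of 255 in liver and from 29.6 to 107 with a median of 37.1 in kidney. The 5 livers with the most Lcn2, those of animals 2, 3, 4, 8 and 10, were also the 5 with the most Saa2 and the most Mt1.

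With the same limit on the kidney mean, the largest SDs in kidney were those of Alb, Cyp24a1, Slc14a2, 2210010C04Rik, Egr1 and Cish. The kidney values of Alb are given with the markers, and 2210010C04Rik rested on 2057 in the kidney of animal 1, the one with pancreas transcripts, against at most 9.1 in the others. Slc14a2, the urea transporter of the inner medulla, read 11.2 in the kidney of animal 4 and 200 to 279 in the 9 others. Egr1, an immediate early gene, ran from 90.5 to 1052 with a median of 146 in kidney and from 127 to 2294 with a median of 1194 in liver. Cish, a feedback inhibitor of cytokine signalling, varied with the animal in both organs. In animals 1, 3, 6, 7 and 8 it read from 594 to 843 in liver and from 599 to 818 in kidney, and in animals 2, 4, 5, 9 and 10 from 71.6 to 244 in liver and from 117 to 166 in kidney. Its log2 difference between the organs was -0.03 ± 0.10, while its SD of log2 signal between animals was 1.40 in liver and 1.27 in kidney.

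**Figure D5:**
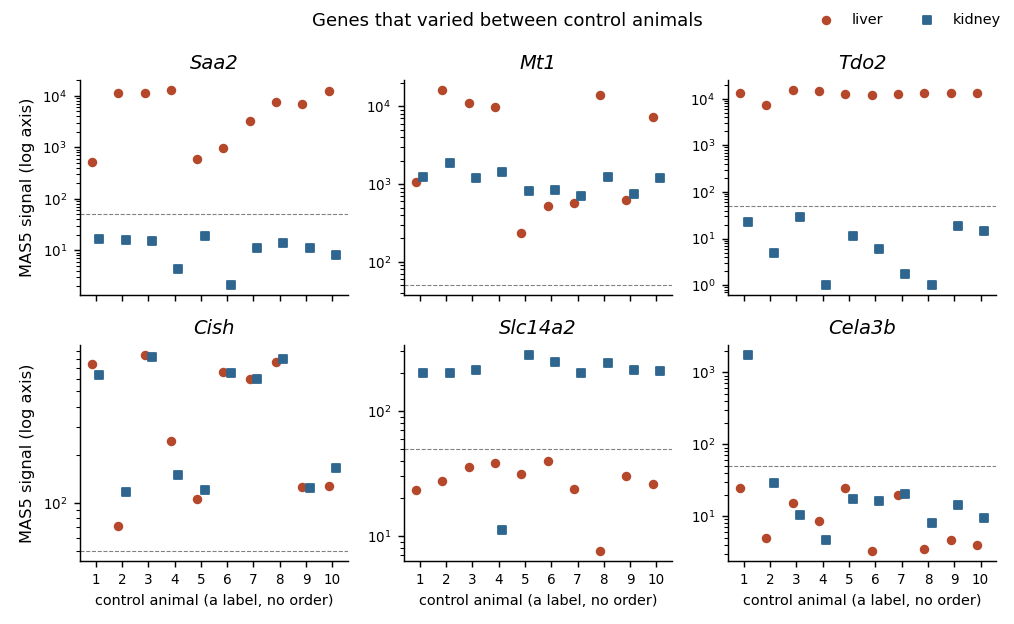
MAS5 signal (log axes, values under 1 drawn at 1) of 6 genes in the liver (red circles) and kidney (blue squares) of each control animal, with the level of 50 dashed. Saa2 and Mt1 spread over more than 10-fold in liver alone, Tdo2 is lowest in the liver of animal 2, Cish moves with the animal in both organs, Slc14a2 is low in the kidney of animal 4 and Cela3b high in that of animal 1.

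The same contrast was measured in the 10 PB animals, which the selection of genes did not use. There 3861 genes (35.3%) were called higher in liver and 5071 (46.4%) higher in kidney. Of the 3723 genes at least 2-fold apart in control mice (34.0% of those tested), 3680 were called in the same direction in PB animals, 3391 of them again at least 2-fold, and 3 were called in the opposite direction: Gadd45b, Gsta2 and Rdh16f2, of which Gadd45b was chosen after its values were seen. A test of the difference between the 2 contrasts (limma, tissue by treatment) called 943 genes (8.62%), with the difference shifted toward liver in 427 (3.9%) and toward kidney in 516 (4.72%). That split depended on the scaling, and centring arrays on the median gave 277 and 745. Gstm3, Cyp2c55, Rdh16f2, Fabp5 and Gstt3 were among the 10 with the smallest p. Cyp2c55, a drug-metabolising P450, was under 50 in the kidneys of both groups, and its liver mean was at least 5.43-fold that of kidney in control and at least 176-fold in PB mice. The log2 difference of Fabp5, a fatty acid binding protein, was 5.45 in control and 2.66 in PB mice. Gstt3, a glutathione S-transferase, turned from -0.78 to 1.97.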

How the data were processed

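RNA from frozen pieces of liver and kidney was labelled and hybridised by the authors to GeneChip Mouse430_2 arrays, 1 per organ and animal. The authors deposited MAS5 signal intensity on a linear scale (GCOS and MAS5, versions not given in the sources used here), scaled to a common trimmed mean per array. Trimmed means computed here were 149.0 to 149.3. All 40 arrays were mapped by their labels. Signals under 1 were set to 1 and taken as log2. Probe sets whose control liver or kidney mean reached 50 were tested with limma 3.58.1 (R 4.3.3, trended eBayes, animal as a block) and Benjamini-Hochberg adjustment at 0.05. Of 45037 probe sets, 34945 had 1 gene symbol, 932 several and 9160 none, and only those with 1 were named, each gene by its tested probe set with the highest mean. The script was tested on simulated data.

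Pairing came from the donor's number, shared by the liver and kidney of 1 animal: deviations from the organ means had a median r of 0.127 within an animal (0.0736 to 0.196) and -0.016 between animals. Members and gene lists were chosen with earlier results of these data known. Genes named were the 4 markers, the 12 largest folds per organ, up to 4 members per list and direction, all isozymes, the 8 brightest level genes, the 6 most variable per organ and the 10 first of the interaction, and others are said to be chosen after their values were seen. Alternatives were other filters, floors, scalings, pairings, tests, probe set rules and left-out animals. Listed genes without a probe set of 1 symbol were not analysed here. Summaries used Python 3.11.15, pandas 2.3.3 and scipy 1.17.1.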

Additional observations from a re-analysis of the deposited data

Results flagged for a closer look

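Of 314 sets of 10 arrays looked at, for the genes named and the sums, 33 held a lone array far from the other 9, by Dixon's limit on the gap to the nearest array over the whole range on the log2 scale. Chance gives such an array in about 1 of 20 sets. Sets that share an array are not independent. Some of the genes were named for their spread between animals or after their values were seen. The 33 of 314 is therefore no test against that share.

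The liver of animal 2 was the lone array for 14 genes. It was the lowest of the livers for Tdo2 (7403), Sult2a8 (7339), Slco1b2 (3470), Slc38a4 (3054), Gcgr (1169), Acat1 (3728), Bdh1 (1482), Creb3l3 (1776), Fxyd1 (2318), Gpt (1087), Gsta2 (396), Egr1 (127) and Pth1r (28.3). It was the highest for the smooth muscle actin Acta2 (418). These values moved together on 1 array, and their cause was not tested.

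The kidney of animal 1 was the highest for pancreas genes, with 1735 for Cela3b, 1329 for Ctrb1, 808 for Cela2a, 769 for Cpb1, 735 for Cpa1, 456 for Prss2, 412 for Clps and 2057 for 2210010C04Rik. In the kidney of animal 4, Slc14a2 read 11.2, Emcn 347 and Gstm5 2083. The liver of animal 5 read 1.26% of the kidney sum of the 12 kidney genes, with 164 for Slc34a1, and 20.6 for Prss2. The remaining lone arrays were the kidney of animal 10 for Alas2 (362) and Gys1 (172), the kidney of animal 6 for Cltrn (7826), the kidney of animal 2 for Cox7a1 (157) and the liver of animal 7 for Egfr (2717).

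The difference between liver and kidney was not the same in PB and control mice for 26 of the genes named (limma, tissue by treatment, adjusted p under 0.05). Values are the log2 difference in PB mice minus that in control mice, and for Cyp2c55, Gadd45b, Cldn8, Lrat, Stab2 and Igf1, each under 50 in at least 1 group, they depend on the floor. It moved toward liver for Cyp2c55 (5.00), Gadd45b (3.64), Gstt3 (2.74), Gstm3 (2.50), Gsta2 (1.49), Sult1c2 (1.42), Rpl41 (0.81), Bdh1 (0.36), Gpt (0.35) and Fth1 (0.28). It moved toward kidney for the metallothionein Mt2 (-2.96), Fabp5 (-2.79), Rdh16f2 (-2.15), Cldn8 (-1.62), Lrat (-1.37), Fabp4 (-1.27), Acacb (-1.23), Acaca (-0.96), Egfr (-0.95), Plce1 (-0.79), Ugt2b38 (-0.72), Stab2 (-0.55), Slc22a7 (-0.44), Ldha (-0.43), Igf1 (-0.41) and Gpt2 (-0.40).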

How the results depend on the processing

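Of 212 genes named, 182 kept their side of the threshold, and where called their direction, under every setting run on them (23 to 28 a gene). In 12 the direction changed in at least 1 setting, with a call before or after the change. Changes of direction in genes called neither before nor after were not counted. Cish, at 0.06 after quantile normalization, was such a gene. Without the replicate block by animal, 3993 genes were higher in liver and 4838 in kidney, and pairing changed no count by over 1.5 times. Leaving out 1 animal at a time gave 8671 to 8804 genes called, 3887 to 3974 of them higher in liver and 4758 to 4830 in kidney, and 749 to 1041 genes in the test of tissue by treatment. With no filter on signal, 25320 probe sets were called, 14005 of them higher in liver, and among genes 6365 were higher in liver, 6233 were at least 2-fold apart (3511 in favour of liver) and 6624 were higher in liver in PB mice. The methods' t-test at the study's thresholds of fold and unadjusted p gave 10019 probe sets (4214 higher in liver, 5805 in kidney), 5404 genes (2305 and 3099) and in PB mice 5512 genes (2300 and 3212), and after Benjamini-Hochberg 3997 and 4812 genes in control mice. In the test of tissue by treatment, centring arrays on the median left 277 genes moved toward liver and 745 toward kidney (27.1% toward liver, against 45.28% before). Without animals 1, 3, 5, 9 and 10, an alternative chosen after seeing the data as was that without animals 1, 2 and 5, 426 were called, 221 and 205. Among genes called before or after, log2 differences changed direction after quantile normalization for Atp5pb (-0.58), Cox7a2 (-0.71), Fbp1 (-0.48), Fth1 (-0.64), Hnf4a (-0.17), Mdh1 (-0.65), Pck1 (-0.25) and Slc25a39 (-0.54). Without probe sets of shared-probe suffixes they did for Atp5pb (-0.13), Cox7a2 (-0.26), Hnf4a (-0.81), Hoxa5 (-3.36), Rpl41 (0.052) and Cela3b (1.68), and with the mean of a gene's probe sets for Hnf4a (-0.33), Hoxa5 (-1.56) and Slc25a39 (-0.053). Cela2a turned to -0.33 with a floor of 50 and to -1.02 in the methods' t-test, and Cela3b to 2.05 without replicate 1 and to 2.08 without animals 1, 2 and 5. Except where a line above gives the construction, the cause was not tested. Signals under 50 are near the background of these arrays, and the 10 animals of each group limit the precision.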

Other observations

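Cela2a was called higher in liver, with a log2 difference of 1.89 ± 0.75, although its mean signal was 43.4 in liver and 87.8 in kidney. The kidney of animal 1 read 808 and the 9 other kidneys 2.2 to 15.0, while the livers ran from 18.1 to 61.6 with a median of 43.2. The mean of the signals and the mean of their logarithms thus had opposite signs.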
